A study of Mus musculus with 6 samples.

Results

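In all, 10 genes of 1 receptor family were followed in the caput epididymis: Adgrg2, Adgrg1, Adgrg6, Adgrl1, Adgrl2, Adgrl3, Adgrl4, Adgrf5, Adgre5 and Adgra3, which all encode adhesion G protein-coupled receptors (GPCRs). They were chosen by gene symbol, are 10 of the 24346 genes in the table, and all passed the filter on low values described below. The series profiled the caput epididymis, the head of the duct in which spermatozoa mature, by RNA sequencing of 8-week-old mice. It compared 3 wild-type libraries with 3 libraries of an Adgrg2 knockout (KO), whose genotype label is Adgrg2-/Y, since Adgrg2 lies on the X chromosome and the animals are male. Which part of Adgrg2 was altered is not given in the labels, which name no other allele and no treatment in either group. Whether each library stands for its own animal is not stated either, so the p-values reflect only the spread between these libraries, part of which may be technical.

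Adhesion GPCRs carry a long extracellular region that binds proteins of the matrix or of neighbouring cells. Most cut themselves within a domain next to the membrane, and the stretch exposed by the cut can act as a tethered agonist that turns on G proteins inside the cell. Adgrg2, also called GPR64 or HE6, is known from the efferent ductules and the proximal epididymis, where mice without it accumulate fluid in the testis and efferent ductules and become infertile.

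The promoters of 3 genes are printed for reference, and a link between their motifs and the levels was not tested. They are those of Adgrg2 itself, of Phka2, the next gene along the X chromosome, and of Adgrl3. Adgrl3 was the member with the lowest KO level relative to wild-type. Each stretch runs from 250 bases before to 50 bases after an annotated start and is taken from RefSeq on GRCm38.p6. It lies on the plus strand at chrX:160390440-160390739 for Adgrg2, at chrX:160501912-160502211 for Phka2 and at chr5:81020321-81020620 for the first of the starts listed for Adgrl3. Capitals mark matches on either strand to the motifs searched.
Adgrg2: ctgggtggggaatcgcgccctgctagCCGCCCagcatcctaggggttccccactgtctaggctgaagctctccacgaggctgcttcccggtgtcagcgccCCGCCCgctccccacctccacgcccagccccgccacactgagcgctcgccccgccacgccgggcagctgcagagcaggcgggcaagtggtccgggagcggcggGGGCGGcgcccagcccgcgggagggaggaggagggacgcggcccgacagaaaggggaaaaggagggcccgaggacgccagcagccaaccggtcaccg
Phka2: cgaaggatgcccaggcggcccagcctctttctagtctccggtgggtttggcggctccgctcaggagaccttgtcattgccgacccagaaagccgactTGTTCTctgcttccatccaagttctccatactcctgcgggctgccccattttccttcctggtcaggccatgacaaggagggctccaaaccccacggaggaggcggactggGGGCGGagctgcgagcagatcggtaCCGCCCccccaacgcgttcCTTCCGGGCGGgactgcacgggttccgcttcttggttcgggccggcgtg
Adgrl3: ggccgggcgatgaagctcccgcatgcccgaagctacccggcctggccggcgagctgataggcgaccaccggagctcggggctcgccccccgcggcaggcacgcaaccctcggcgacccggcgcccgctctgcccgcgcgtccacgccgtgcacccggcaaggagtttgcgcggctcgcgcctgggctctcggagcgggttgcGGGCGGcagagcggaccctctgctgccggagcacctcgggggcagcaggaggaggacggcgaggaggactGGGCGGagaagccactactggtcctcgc
The motif list opened with GGGCGG, the GC box bound by Sp factors, and with CCGGAAG, the core bound by ETS factors. It went on with the half-site of the androgen receptor, spelled AGAACA, and the cAMP response element, spelled TGACGTCA. The last motif was the TATA box, spelled TATAAA. The Adgrg2 stretch had a GC content of 74.0% and held 3 GC boxes and no other motif of the list. The Phka2 stretch had a GC content of 64.3% and held 3 GC boxes, 1 ETS core that overlaps a GC box, and 1 androgen receptor half-site. The Adgrl3 stretch had a GC content of 75.3% and 2 GC boxes. Over the 13 promoter entries of 9 members, 5 members held a GC box, 2 a TATA box, 1 an androgen receptor half-site, and 0 an ETS core or a cAMP response element. A member counted if any of its entries held the motif. Over all 32851 promoters of 300 bases, the share with a match was 35.7% for the GC box, 13.6% for the TATA box, 19.0% for the half-site, 8.86% for the ETS core and 1.79% for the cAMP response element. These shares count single promoters, so they are not in the same unit as the member counts.

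Levels are in FPKM, that is fragments scaled to transcript length and library size, which the authors had normalized across libraries. The normalized counts of the same libraries summed to between 18136864 and 21455984. Genotypes were compared with limma on log2(FPKM + 1) over the 12799 genes that averaged 1 FPKM or more, with Benjamini-Hochberg adjustment and a threshold of 0.05, and every log2 change and its standard error are on that scale, which understates the change of low genes. KO replicate 3 stood apart: it lay at 80.1 on the first principal component, which held 68.2% of the variance, against -4.31 and 1.78 for the other KO libraries and -27.7 to -24.5 for wild-type. Within a genotype, the typical gene had an SD (median over genes) of 0.0669 among wild-type libraries and 0.284 among KO libraries, or 0.145 once KO replicate 3 was left out. In KO replicate 3 the summed level of endothelial, smooth muscle, basal cell and fibroblast markers was 37.8, 236.6, 28.9 and 37.7 FPKM, below every other library, and that of luminal epithelial markers was 2599 FPKM, above every other library. Fewer cells of a type and less RNA per cell cannot be told apart in such bulk samples. The tissue label was checked on Gpx5, a secreted glutathione peroxidase of the caput, which stood at 33682 to 38528 FPKM in wild-type libraries against 47219 to 59342 FPKM in KO libraries. The 8 markers of caput principal cells did not move together: Gpx5, Lcn5 and Spag11b had higher KO means and the other 5 lower ones, Lcn8 at 18126 against 2971 FPKM and Crisp1 at 364.8 against 114.7 FPKM among them.

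In wild-type caput the 10 receptors spanned more than 2 orders of magnitude, and Adgrg2 stood far above the others. Its level was 7.21 times that of Adgrg1, which in turn was 5.31 times that of Adgrl1, and Adgrl1 stood at 2.27 times Adgrl2. None of these neighbours overlapped between libraries. Adgrl2, Adgre5, Adgrg6, Adgrf5 and Adgra3 followed, each overlapping with the next in the order. Adgrl4 and Adgrl3 came last, separated from their upper neighbours by 1.45 times and 1.52 times. Wild-type libraries agreed to within a ratio of highest to lowest of 1.02 for Adgrg1 and 1.43 for Adgre5, the ends of the range over the members.

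**Figure D1:**
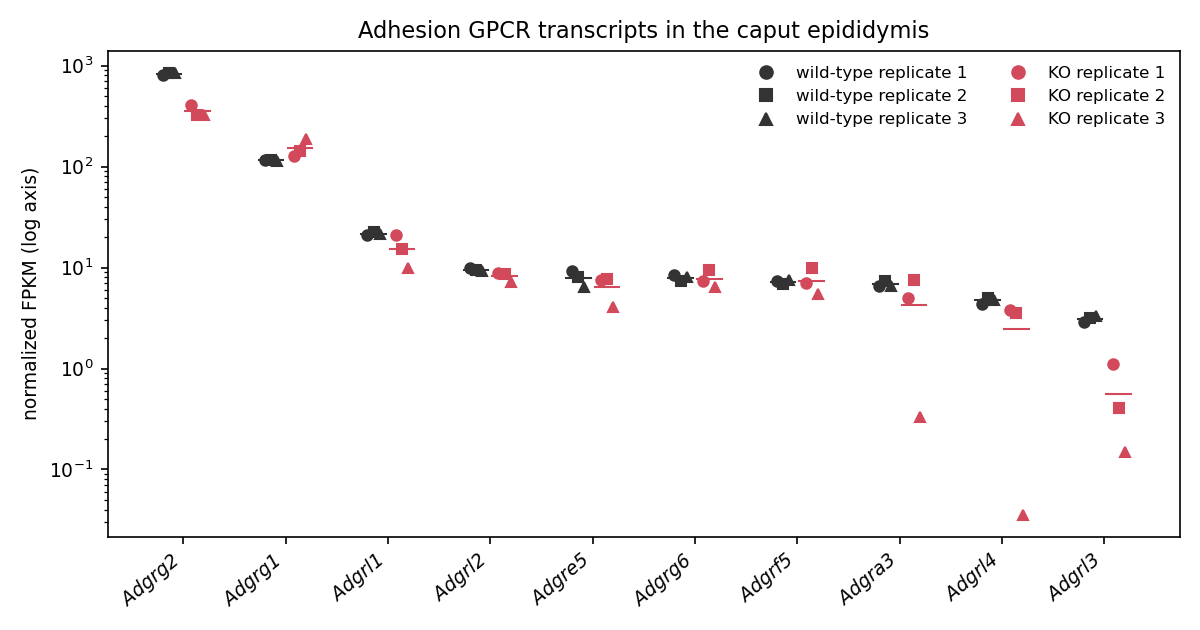
Normalized FPKM of the 10 adhesion GPCR genes on a log axis, ordered by wild-type mean; black symbols are wild-type and red symbols KO libraries, and bars are group means. Adgrg2 and Adgrl3 lie lower in each KO library than in each wild-type library, while Adgrl4 and Adgra3 lie far below wild-type in KO replicate 3 alone.

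With all 6 libraries, limma called 0 of the 10 members at the adjusted threshold and 2 had an unadjusted p under 0.05, Adgrg2 and Adgrl3. Over all tested genes, 0.25% were called, 0.172% lower and 0.0781% higher in the KO, and 17.5% had an unadjusted p under 0.05. Without KO replicate 3, Adgrg2 and Adgrl3 both passed the threshold, both lower in the KO, where 4.93% of all genes passed in either direction, 2.34% lower and 2.59% higher. Both also passed without KO replicate 1, where 4.23% of all genes passed, 2.75% lower and 1.48% higher. The median log2 change was -0.42 over the members and 0.01 over all tested genes, and the members' median was -0.13 without KO replicate 3. In 5 members, Adgrg2 and Adgrl1 to Adgrl4, every KO library lay below every wild-type library, a pattern seen in 16.1% of all genes. In 1 member, Adgrg1, every KO library lay above, as in 16.8% of all genes, and the genotypes of the other 4 overlapped. KO replicate 3 was the lowest of all libraries for 8 members, as for 34.8% of all tested genes, and lay below every wild-type library for 9, as for 42.4% of all tested genes. Groups that did not overlap were seen in 32.9% of all tested genes.

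**Figure D2:**
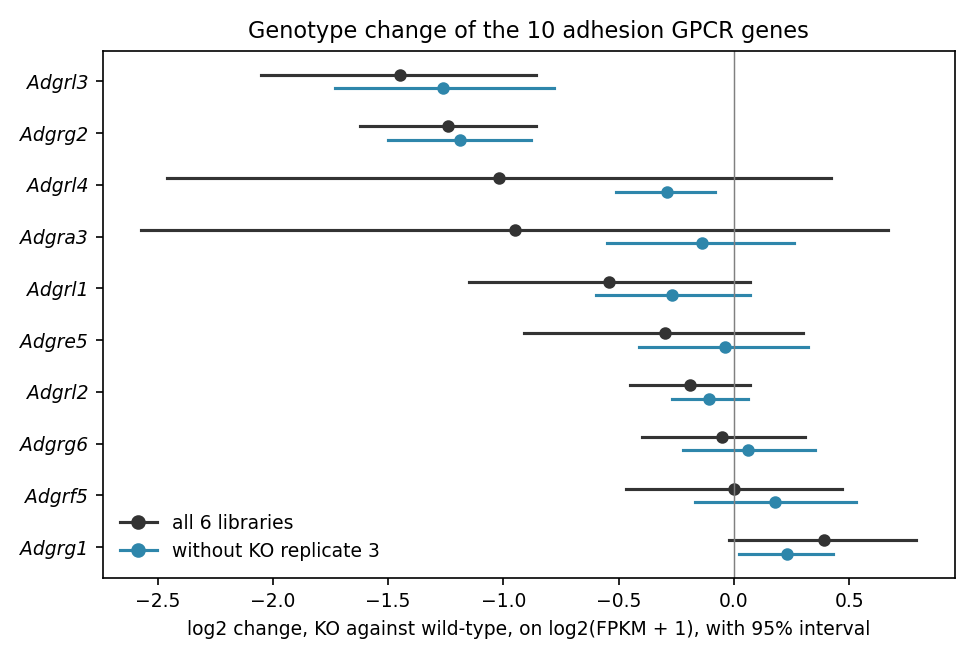
Log2 change of each member in KO against wild-type on the log2(FPKM + 1) scale with its 95% interval from limma, with all 6 libraries (black) and without KO replicate 3 (blue). The intervals of Adgrl3 and Adgrg2 lie below 0 in both fits, and those of Adgrl4 and Adgra3 narrow and move towards 0 when KO replicate 3 is left out.

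Adgrg2, at X:160390318-160498076, was still among the well expressed genes of the KO caput. It stood at 808.4, 850.1 and 841.2 FPKM in wild-type libraries against 409.6, 323.8 and 327.6 FPKM in KO libraries. Every KO library lay below every wild-type library, and each kept between 38.9% and 49.2% of the wild-type mean. Among all genes Adgrg2 ranked 99 to 110 in wild-type libraries against 218 to 354 in KO libraries. The means were 833.2 ± 21.9 and 353.7 ± 48.5 FPKM (SD, n = 3 each), so the KO held 42.4% of the wild-type level. The log2 change was -1.24 ± 0.16 (SE, 95% interval -1.62 to -0.86), with a limma adjusted p of 0.0579. It passed the threshold without KO replicate 3, with a change of -1.19 ± 0.12 and a limma adjusted p of 0.015, and without KO replicate 1, with a limma adjusted p of 0.0137. It did not pass without KO replicate 2 (limma adjusted p = 0.0875) or without any 1 wild-type library (0.412 to 0.447). The values sum over the whole gene, so they do not show which exons the remaining transcripts contain. Markers of the efferent ductules and of multiciliated cells summed to 25.7 to 28.3 FPKM in wild-type libraries and to 19.7, 38.0 and 37.0 FPKM in KO libraries with members on both sides of wild-type, such as Rsph1 at 23.5 FPKM in KO replicate 3 and Tppp3 at 4.33 FPKM in KO replicate 1. Luminal epithelial markers summed to 1335 to 1410 FPKM in wild-type libraries and to 1746, 1565 and 2599 FPKM in KO libraries. Transcripts of spermatids and sperm summed to 164.1 to 173.2 FPKM in wild-type libraries and to at most 30.5 FPKM in each KO library. The median of the 8 caput principal cell markers relative to wild-type was 0.07, -0.84 and -1.43 on the log2 scale in KO replicates 1, 2 and 3. The part of these 4 lists in the result was not tested. A KO mean below 50% of the wild-type mean was seen in 4.02% of all tested genes.

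Adgrg2 took up a smaller part of the family's RNA in the KO. Of the summed FPKM of the 29 adhesion GPCR genes in the table, Adgrg2 made up 79.1%, 80.0% and 80.2% in wild-type libraries and 65.6%, 57.2% and 56.9% in the KO. The groups did not overlap, and the difference was -19.9 percentage points, KO minus wild-type (79.8% ± 0.553 against 59.9% ± 4.91, SD, n = 3 each; two-sided exact permutation p = 0.1, the smallest that 3 against 3 libraries can give). The summed family level was 1022, 1063 and 1049 FPKM in wild-type libraries against 624.8, 565.8 and 576.0 FPKM in KO libraries. Leaving Adgrg2 out, the sum was 208.0 to 213.2 FPKM in wild-type libraries against 215.2 to 248.4 FPKM in KO libraries. That sum includes Adgrg1, at 114.4 to 116.3 FPKM in wild-type libraries against 126.8, 144.4 and 189.3 FPKM in KO libraries. It therefore does not show that the other 27 genes were higher in the KO. Adgrg1 made up 10.9% to 11.4% of the family in wild-type libraries and 20.3%, 25.5% and 32.9% in the KO. Adgrg2 exceeded Adgrg1 by 6.95 to 7.35 times in wild-type libraries and by 3.23, 2.24 and 1.73 times in the KO.

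**Figure D3:**
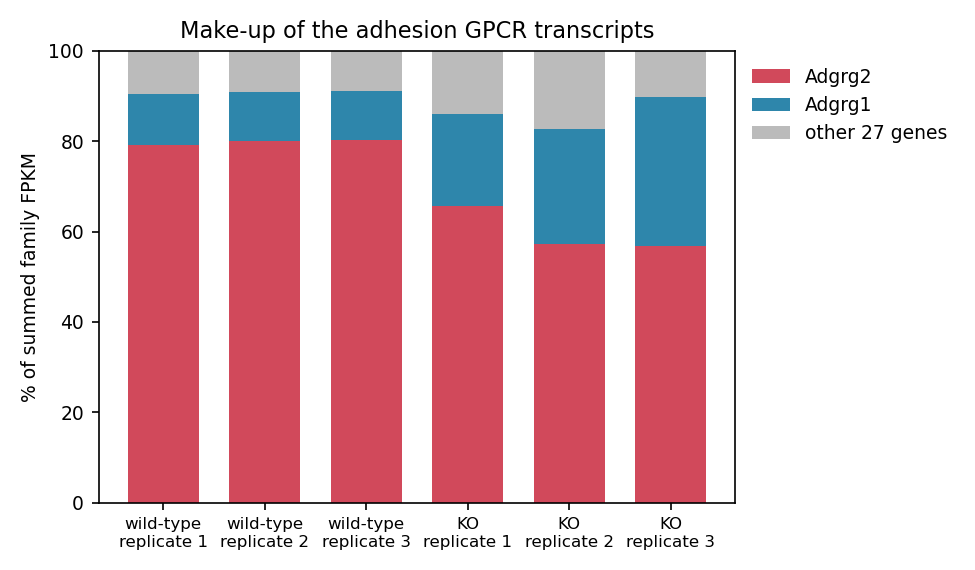
Share of the summed adhesion GPCR FPKM that came from Adgrg2 (red), Adgrg1 (blue) and the other 27 family genes (grey) in each library. The share of Adgrg2 is 79.1% to 80.2% in wild-type libraries and 56.9% to 65.6% in the KO.

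The gene that follows Adgrg2 on the X chromosome differed in the opposite direction. Phka2, which encodes the liver form of the alpha subunit of phosphorylase kinase, starts 3.8 kb beyond the end of Adgrg2 on the same strand, with no gene annotated between them. It stood at 4.37, 4.16 and 4.69 FPKM in wild-type libraries against 11.2, 9.44 and 8.6 FPKM in KO libraries. Every KO library lay above every wild-type library, and the mean was 2.21-fold higher (4.41 ± 0.266 against 9.75 ± 1.34 FPKM, SD, n = 3 each). The log2 change was 0.99 ± 0.12 (SE) with a limma adjusted p of 0.0579. It passed the threshold without KO replicate 3 (1.06 ± 0.10, limma adjusted p = 0.0133) and without KO replicate 1 (limma adjusted p = 0.024). It did not pass without KO replicate 2 (limma adjusted p = 0.104), without any 1 wild-type library (0.391 to 0.418) or with the replicate number as a block (0.236). The neighbours, 3 tested genes on each side, were looked up after the results were seen. The other 5 lay 251.9 to 1219.0 kb away and had limma adjusted p-values of 0.28 to 0.634. Pdha1, the alpha subunit of pyruvate dehydrogenase on the other side of Adgrg2, stood at 79.1 ± 2.9 FPKM in wild-type libraries against 71.1 ± 4.29 FPKM in KO libraries (SD, n = 3 each; limma adjusted p = 0.438). Whether the altered allele itself bears on the level of Phka2 was not tested.

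**Figure D4:**
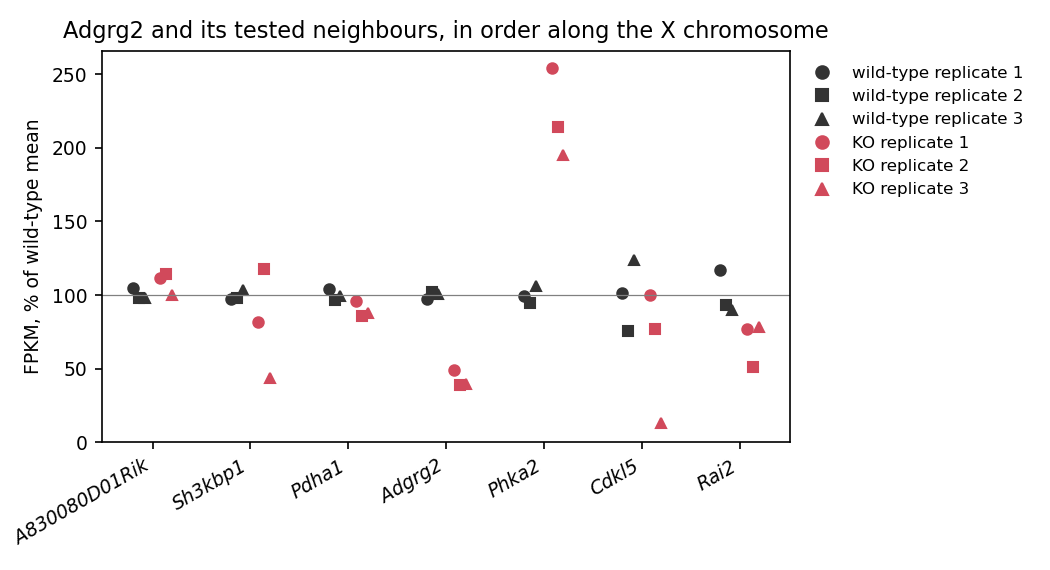
FPKM as a percentage of the wild-type mean for Adgrg2 and the 3 tested genes on each side of it, in chromosome order, with black symbols for wild-type and red symbols for KO libraries. Adgrg2 lies below and Phka2 above the wild-type libraries in each KO library.

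Adgrg1, also called GPR56 and known as a receptor for collagen III and transglutaminase 2, was the second receptor of the caput and lies at 8:94974756-95014208. It stood at 116.3, 116.0 and 114.4 FPKM in wild-type libraries against 126.8, 144.4 and 189.3 FPKM in KO libraries. Every KO library lay above wild-type, with the highest value in KO replicate 3. The mean was 1.33-fold higher (115.6 ± 1.04 against 153.5 ± 32.2 FPKM, SD, n = 3 each), with a log2 change of 0.39 ± 0.17 (SE) and a limma adjusted p of 0.298. Without KO replicate 3 the change was 0.23 ± 0.08, with a limma adjusted p of 0.164. Of the 8 markers of luminal epithelium, 7, such as Krt8 and Epcam, also had a positive change, and 1, Cldn4, a negative one. The median of the 8 luminal markers relative to wild-type was 0.34, 0.14 and 0.88 on the log2 scale in KO replicates 1, 2 and 3, against 0.13, 0.32 and 0.71 for Adgrg1, and their part in the result was not tested.

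Adgrg6, also called GPR126, is needed for myelination by Schwann cells and lies at 10:14402583-14545723. It stood at 8.36, 7.41 and 8.06 FPKM in wild-type libraries against 7.43, 9.36 and 6.42 FPKM in KO libraries. The genotypes overlapped, and the log2 change was -0.05 ± 0.15 (SE, 95% interval -0.40 to 0.31; limma adjusted p = 0.864). Without KO replicate 3 its sign turned, to 0.06. Of the Schwann cell markers, Sox10, the defining factor of that lineage, stood below 0.3 FPKM in every library and was listed at 0 in KO replicate 3.

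The latrophilins Adgrl1, Adgrl2 and Adgrl3 are receptors for teneurins and FLRT proteins, best known from synapses. Adgrl3, at 5:81019085-81827825, had the largest fold difference between genotype means of the 10 members. It stood at 2.91, 3.19 and 3.28 FPKM in wild-type libraries against 1.11, 0.409 and 0.149 FPKM in KO libraries. The groups were far apart, and the KO libraries kept 35.6%, 13.1% and 4.78% of the wild-type mean. The normalized counts corresponded to 296 to 329 fragments in wild-type libraries and to 107, 39 and 12 fragments in the KO, so the KO values carry more counting error. The mean was 5.61-fold lower (3.12 ± 0.191 against 0.557 ± 0.498 FPKM, SD, n = 3 each), with a log2 change of -1.45 ± 0.24 (SE) and a limma adjusted p of 0.0976. The KO mean lay below the filter of 1 FPKM, so Adgrl3 entered the test through its wild-type level. The gene passed the threshold without KO replicate 3 (-1.26 ± 0.19, limma adjusted p = 0.0369) and without KO replicate 1 (-1.70 ± 0.15, limma adjusted p = 0.0131). It did not pass without KO replicate 2 (limma adjusted p = 0.143) or without any 1 wild-type library (0.467 to 0.503). Of its exonic bases in GENCODE M21, 8.91% are shared with an antisense gene, and the sources used here do not say whether strand was used in counting.

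Adgrl1, at 8:83900098-83941954, was the highest latrophilin. It stood at 21.1, 22.7 and 21.4 FPKM in wild-type libraries against 20.8, 15.3 and 9.82 FPKM in KO libraries. All KO libraries lay below wild-type, KO replicate 1 only just, at 95.8% of the wild-type mean against 45.1% in KO replicate 3. The fit gave a log2 change of -0.54 ± 0.25 (SE, limma adjusted p = 0.327), and -0.27 without KO replicate 3. Adgrl1 shares exonic bases with 3 genes on the opposite strand, the largest overlap being 12.9%. Its values are uncertain if the counting ignored strand. Adgrl2, at 3:148815586-148989096, stood at 9.9, 9.55 and 9.25 FPKM in wild-type libraries against 8.94, 8.68 and 7.27 FPKM in KO libraries. It, too, was below wild-type in each KO library, by a small step, with a log2 change of -0.19 ± 0.11 (SE, 95% interval -0.45 to 0.07; limma adjusted p = 0.391). Together with Adgrg6 and Adgrf5, Adgrl2 was one of 3 members within 1.5-fold of the wild-type mean in every KO library.

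Among the teneurins, Tenm4 fell. This cell-surface protein of the family that latrophilins bind stood at 9.16, 9.08 and 8.48 FPKM in wild-type libraries against 0.0783, 1.02 and 0.127 FPKM in KO libraries. All KO libraries were far below wild-type, and the mean was 21.9-fold lower (8.91 ± 0.372 against 0.407 ± 0.528 FPKM, SD, n = 3 each). Tenm4, too, passed the filter of 1 FPKM through its wild-type level. On the log2 scale the change was -2.88 ± 0.26 (SE), with a limma adjusted p of 0.0225, and 0.0135 without KO replicate 3. Leaving out any 1 wild-type library ended the call, with limma adjusted p-values of 0.201, 0.248 and 0.228, and so did a pseudocount of 0.1 (0.101), the normalized counts as measure (0.131) and the replicate number as a block (0.122). Tenm2 stood at 1.07 ± 0.0268 FPKM in wild-type libraries against 0.942 ± 0.569 FPKM in KO libraries (SD, n = 3 each; limma adjusted p = 0.771). Fibroblast markers were also lower, with a median of -1.40, -0.28 and -3.55 on the log2 scale relative to wild-type in KO replicates 1, 2 and 3, and their part in the result was not tested.

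Adgrl4 and Adgrf5 are both known from blood vessels. Adgrl4, also called ELTD1, a regulator of vessel growth, lies at 3:151437882-151545081 and had the widest spread of any member in the KO. It stood at 4.4, 5.01 and 4.82 FPKM in wild-type libraries against 3.78, 3.59 and 0.0358 FPKM in KO libraries. KO replicates 1 and 2 were slightly below wild-type, while KO replicate 3 was all but without the transcript, at 2 fragments against 324 to 337 in wild-type. That library held 0.754% of the wild-type mean, with an exact Poisson 95% interval of 0.0913% to 2.72% that covers counting error only. A level below 10% of the wild-type mean in KO replicate 3 was seen in 4.71% of all tested genes. The log2 change was -1.02 ± 0.59 (SE, limma adjusted p = 0.397) with all libraries, and -0.29 ± 0.08 (95% interval -0.51 to -0.08, limma adjusted p = 0.112) without KO replicate 3.

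The endothelial markers moved the same way in KO replicate 3. All 13 of the 13 markers lay below every wild-type library there, none at 0, and their median relative to wild-type was -0.09, -0.05 and -2.27 on the log2 scale in KO replicates 1, 2 and 3. Their summed level was 140.8 to 146.5 FPKM in wild-type libraries against 141.7, 120.1 and 37.8 FPKM in KO libraries, and their part in the result was not tested. Set against each of the 13 markers in turn, the ratio of Adgrl4 to the marker in KO replicate 3 was below every wild-type ratio for 13 markers, at a median of 21.4% of wild-type. In KO replicate 1 it was below for 9 markers and above for 2, and in KO replicate 2 below for 7 and above for 4, so the direction in these libraries depended on the marker. The 13 ratios of KO replicate 3 ran from 1% to 85% of wild-type. They all rest on the same 2 fragments of Adgrl4, so they are not separate readings. The counting error of those fragments is left out of the ratios.

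Adgrf5, also called GPR116, which controls surfactant in the lung, lies at 17:43360329-43459557. It stood at 7.33, 6.91 and 7.5 FPKM in wild-type libraries against 7.05, 9.82 and 5.49 FPKM in KO libraries. The genotypes overlapped, with KO replicate 2 the highest and KO replicate 3 the lowest of the libraries, the latter at -0.35 on the log2 scale relative to wild-type. The log2 change was 0.00 ± 0.19 (SE, 95% interval -0.47 to 0.47; limma adjusted p = 0.99).

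**Figure D5:**
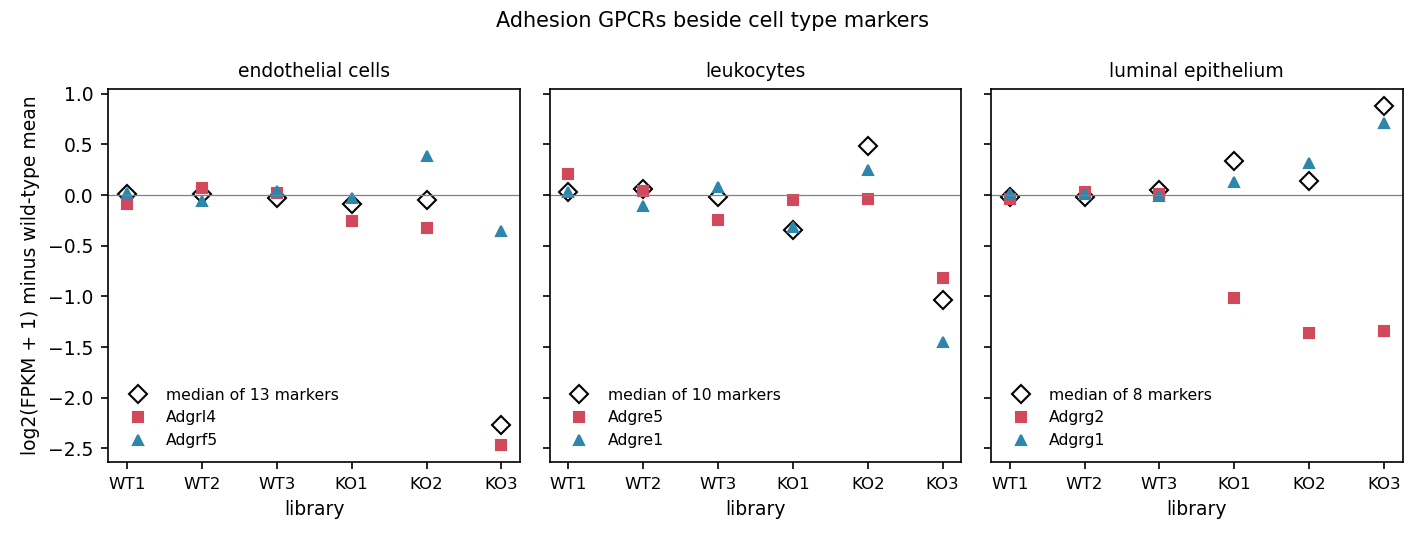
Log2(FPKM + 1) minus the wild-type mean in each library for 6 adhesion GPCRs, beside the median (open diamonds) of 13 endothelial, 10 leukocyte and 8 luminal epithelial markers; Adgre1 is itself on the leukocyte list. In KO replicate 3, Adgrl4 lies at -2.47 beside an endothelial median of -2.27, and Adgrg1 at 0.71 beside a luminal median of 0.88. The value of Adgrl4 is near the lowest that this scale allows for it, so the closeness to the median is not informative. In FPKM it stood at 0.754% of the wild-type mean there, and its ratio to each of the 13 markers was below every wild-type ratio. All of these ratios rest on the same 2 fragments of Adgrl4, and they leave out its counting error.

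Adgre5, the leukocyte receptor CD97 that binds CD55, lies at 8:83723245-83741311. It stood at 9.28, 8.12 and 6.47 FPKM in wild-type libraries against 7.58, 7.64 and 4.04 FPKM in KO libraries. KO replicates 1 and 2 lay within the wild-type range and KO replicate 3 below it. The fit gave a log2 change of -0.30 ± 0.25 (SE, limma adjusted p = 0.513), and -0.04 without KO replicate 3. In KO replicate 3, 9 of the 12 leukocyte markers lay below every wild-type library, as did 42.4% of all tested genes. Cd68 and Cd3e lay above every wild-type library there, at 62.6 and 1.58 FPKM against wild-type means of 19.2 and 0.63 FPKM. Cd79a, which defines B cells, reached at most 0.157 FPKM in any library and was listed at 0 there and in wild-type replicate 3. The median over the 10 tested markers relative to wild-type was -0.34, 0.48 and -1.04 on the log2 scale in KO replicates 1, 2 and 3. The summed level of all 12 was 326.5 to 347.2 FPKM in wild-type libraries against 387.3, 455.6 and 302.1 FPKM in KO libraries. Most of that sum was Cd52, at 218.9 to 242.1 FPKM in wild-type libraries against 312.4, 295.6 and 207.2 FPKM in KO libraries. In KO replicate 1 the sum therefore lay above wild-type although the median lay below it. The part of these markers in the result was not tested. Adgre5 shares 23.8% of its exonic bases with Ddx39 on the opposite strand, so its values are uncertain if the counting ignored strand. Ddx39, an RNA helicase, stood at 17.8, 17.6 and 17.9 FPKM in wild-type libraries against 29.7, 17.6 and 27.3 FPKM in KO libraries (limma adjusted p = 0.322).

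Adgra3, also called GPR125, lies at 5:49959951-50058996, and in mice it marks undifferentiated spermatogonia of the testis. It stood at 6.59, 7.37 and 6.61 FPKM in wild-type libraries against 4.96, 7.47 and 0.328 FPKM in KO libraries. KO replicate 2 was the highest of all libraries and KO replicate 3 the lowest by far, at 4.79% of the wild-type mean. That value rests on 25 fragments, against 629 to 667 in wild-type. The fit gave a log2 change of -0.95 ± 0.67 (SE, limma adjusted p = 0.459), and -0.14 without KO replicate 3. In KO replicate 3 all 7 basal cell markers and all 10 smooth muscle markers were also below every wild-type library, and their part in the result was not tested.

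Outside the 10 members, 6 further family genes were tested, and limma called 0 of them with all 6 libraries, with an unadjusted p under 0.05 for 1, Celsr1. Over all 16 tested family genes, members included, the median log2 change was -0.16, and 0.02 without KO replicate 3. The cadherin-type receptors Celsr1 and Celsr2, known from planar cell polarity, had higher KO means. Celsr1 stood at 3.93, 3.86 and 3.81 FPKM in wild-type libraries against 4.46, 5.32 and 4.94 FPKM in KO libraries. The groups did not overlap (log2 change 0.28 ± 0.11, SE, limma adjusted p = 0.262). Celsr2 stood at 5.85, 5.81 and 5.73 FPKM in wild-type libraries against 5.42, 9.16 and 10.7 FPKM in KO libraries. KO replicate 1 lay below wild-type and the others above it (0.43 ± 0.23, limma adjusted p = 0.365), and without KO replicate 1 the gene passed the threshold (0.68, limma adjusted p = 0.0414).

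Adgre1, the F4/80 antigen of macrophages, stood at 4.21, 3.73 and 4.39 FPKM in wild-type libraries against 3.13, 5.07 and 0.872 FPKM in KO libraries. KO replicate 2 was the highest library and KO replicate 3 the lowest (limma adjusted p = 0.517). Adgra2, a coreceptor for Wnt7 in brain vessels, stood at 6.83 to 7.43 FPKM in wild-type libraries against 6.39 to 8.33 FPKM in KO libraries, so its genotypes overlapped (limma adjusted p = 0.922). Adgrb1 stood at 1.43 to 1.74 FPKM in wild-type libraries against 1.81, 2.08 and 0.487 FPKM in KO libraries. Adgrb2 stood at 1.14 to 1.35 FPKM in wild-type libraries against 1.37, 2.87 and 0.345 FPKM in KO libraries. Both belong to the brain angiogenesis inhibitor group and were low in KO replicate 3 (limma adjusted p = 0.813 and 0.941). The other 13 family genes had a mean below 1 FPKM and reached at most 1.35 FPKM in any library.

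Ligands and partners of these receptors were read from a list of 25 genes, of which 14 were tested. Only Tenm4 passed the threshold with all 6 libraries, where 0.25% of all tested genes were called. Of the 14 changes, 13 were negative, with a median log2 change of -0.62 against 0.01 over all tested genes. Without KO replicate 3 the median was -0.00, Tenm4 still fell, and 3 genes rose: the collagen IV chains Col4a1 and Col4a2 and the netrin receptor Unc5a. In that fit 2.34% of all tested genes were called lower and 2.59% higher. Col4a1, a chain of the basement membrane collagen that Adgrg6 binds, stood at 27.1, 31.7 and 30.3 FPKM in wild-type libraries against 50.6, 49.0 and 0.958 FPKM in KO libraries. KO replicates 1 and 2 lay above wild-type and KO replicate 3 far below it, and Col4a2 had the same order. Unc5a averaged 13.8 ± 0.659 FPKM in wild-type (SD, n = 3), and its KO libraries read 23.1, 25.4 and 45.0 FPKM. The groups did not overlap, and the limma adjusted p was 0.15 with all libraries and 0.0143 without KO replicate 3.

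By mean FPKM over all 6 libraries, the highest of the listed partners were Prnp, Itgb1 and Tgm2. Prnp, the prion protein and a ligand of Adgrg6, stood at 204.4 ± 2.64 FPKM in wild-type libraries against 180.9 ± 21.2 FPKM in KO libraries (SD, n = 3 each; limma adjusted p = 0.459). Itgb1, the integrin beta-1 chain, stood at 121.7 ± 2.37 and 114.8 ± 43.0 FPKM (SD, n = 3 each; limma adjusted p = 0.767). Tgm2, the transglutaminase bound by Adgrg1, stood at 64.9, 70.9 and 70.8 FPKM in wild-type libraries against 78.8, 55.6 and 9.55 FPKM in KO libraries. Its KO libraries lay on both sides of wild-type, with KO replicate 3 far below (limma adjusted p = 0.491). Col3a1, the collagen III chain bound by Adgrg1, was above Tgm2 in wild-type by mean, at 79.5, 67.7 and 66.1 FPKM in wild-type libraries against 28.4, 71.5 and 3.7 FPKM in KO libraries. KO replicate 2 lay within the wild-type range and the other KO libraries below it (limma adjusted p = 0.371). Cd55, the partner of Adgre5, stood at 1.46 ± 0.188 FPKM in wild-type libraries against 0.751 ± 0.34 FPKM in KO libraries (SD, n = 3 each; limma adjusted p = 0.26).

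Inside the cell, G proteins, receptor kinases, arrestins and the chloride channel Cftr, which is known to be coupled to Adgrg2 in the efferent ductules, made a list of 16 genes, all tested. With all 6 libraries limma called 0 of them, where 0.25% of all tested genes were called. An unadjusted p under 0.05 was seen for 3 of the 16, near the 17.5% of all tested genes, and the median log2 change was -0.16. Gnas, the stimulatory alpha subunit, was the highest, at 744.3 ± 9.78 FPKM in wild-type libraries against 731.6 ± 98.2 FPKM in KO libraries (SD, n = 3 each; limma adjusted p = 0.915). Gnai2, Gna11 and Gnai3, further alpha subunits, had wild-type means of 190.6, 76.8 and 68.7 FPKM and KO means of 176.4, 67.1 and 70.0 FPKM, with limma adjusted p-values of 0.616, 0.456 and 0.874.

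Cftr stood at 16.8, 17.2 and 17.2 FPKM in wild-type libraries against 8.49, 6.24 and 3.52 FPKM in KO libraries. Every KO library lay well below wild-type, by 2.81-fold on average, with a log2 change of -1.42 ± 0.26 (SE) and a limma adjusted p of 0.106. Without KO replicate 3, Cftr fell (limma adjusted p = 0.0178), as did Gna12, another alpha subunit (38.0 ± 0.383 against 21.6 ± 6.68 FPKM, SD, n = 3 each), and the receptor kinase gene listed as Adrbk2 (4.28 ± 0.226 against 1.04 ± 0.413 FPKM, SD, n = 3 each), whose limma adjusted p-values were then 0.0232 and 0.00926. With all libraries the values for Gna12 and Adrbk2 were 0.184 and 0.0596. Of all tested genes, 2.34% were called lower without KO replicate 3 and 2.75% without KO replicate 1. Without KO replicate 1, Cftr and Adrbk2 fell together with Adrbk1, another kinase that switches off active receptors (limma adjusted p = 0.0299, 0.0358 and 0.0278). Adrbk1 stood at 44.2 FPKM in KO replicate 1, above every wild-type library (at most 42.6 FPKM), and its limma adjusted p was 0.363 with all libraries and 0.462 without KO replicate 3. These 4 genes, and Col3a1, Cd55, Tenm2, Col4a1 and Unc5a of the partners, were named after their values were seen.

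The genes closest to Adgrg2 were ranked by the root mean square difference of log2(FPKM + 1), taken relative to the wild-type mean, over the 6 libraries. Fah, the last enzyme of tyrosine breakdown, came first with a difference of 0.112 and stood at 49.9 ± 1.38 FPKM in wild-type libraries against 20.4 ± 5.71 FPKM in KO libraries (SD, n = 3 each). Slc41a3, a magnesium transporter homologue, followed at 0.113, with 45.1 ± 3.67 and 19.3 ± 3.82 FPKM (SD, n = 3 each). Ano10, of the anoctamin family, came next at 0.115, with 35.6 ± 1.0 and 15.5 ± 4.27 FPKM (SD, n = 3 each). These genes had KO levels below wild-type like Adgrg2, with limma adjusted p-values of 0.0816, 0.0659 and 0.0854. Mroh2a followed at 0.122 and fell, with a limma adjusted p of 0.0438 that ranged from 0.0718 to 0.414 in the fits that ended the call (a pseudocount of 0.1, quantile normalization, the replicate number as a block, and leaving out KO replicate 2 or any 1 wild-type library). Next came 1700012A03Rik and 4930571K23Rik at 0.141 and 0.142, each below 3 FPKM in every library. In FPKM, the KO means of Mroh2a, 1700012A03Rik and 4930571K23Rik were 17.2%, 13.7% and 6.28% of wild-type, against 42.4% for Adgrg2. Mroh2a, 1700012A03Rik and 4930571K23Rik passed the filter of 1 FPKM through wild-type, with KO means of 0.405, 0.273 and 0.12 FPKM. With a pseudocount of 0.1 their log2 changes were -2.28, -2.94 and -3.49, against -1.24 for Adgrg2. The likeness of these low genes to Adgrg2 therefore depends on the pseudocount of 1 FPKM. The likeness is a description of 6 libraries and was chosen on the same values.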

How the data were processed

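RNA of the caput epididymis was isolated with an RNeasy kit and made into libraries with a stranded Illumina mRNA kit, per the labels' protocols. The submitters' processing notes name TopHat2 2.1.1, Cufflinks 2.2.1 and the mm10 build. The sources used here do not give the annotation, the strand setting or the normalization method. Per the file headers, the authors normalized both deposited measures across libraries: the FPKM values, and the normalized counts, which are a signal and no longer raw counts. Of the normalized counts below 300, 98.41% to 98.76% per library lay within a tolerance of 0.05 steps of a whole multiple of the library's step. Taking a step as 1 fragment puts depth at 16498418 to 19723832 fragments, and the fragment numbers printed are normalized counts divided by the step. Intervals on them cover counting error only.

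The members and lists were chosen with earlier results of these data known. The 12799 genes averaging 1 FPKM or more across the 6 libraries entered the test. A gene with a KO mean below the filter could enter through wild-type, as Adgrl3 did among the members. A linear model of log2(FPKM + 1) on genotype alone was fitted with limma 3.58.1 (R 4.3.3) and moderated by empirical Bayes with a trend of variance on mean. Two-sided p-values were adjusted over all tested genes by Benjamini-Hochberg, with a threshold of 0.05. On simulated data with 200 of 12799 genes changed, 134 genes were called, 10 of them wrongly. The share recovered was 0.46 for log2 changes of 1 and 0.78 for log2 changes of 2. The simulated noise was independent and had the same SD in both genotypes. In the data the KO libraries spread more widely and KO replicate 3 stood apart, so the simulation cannot show the error rate here. The share of Adgrg2 was compared by a two-sided exact permutation test. Tables were prepared with Python 3.11.15, numpy 2.4.6 and pandas 2.3.3. Coordinates and promoters come from RefSeq on GRCm38.p6, in which 24260 genes (99.65%) were found by NCBI gene ID, and overlaps of exons from GENCODE M21.

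Named were all 10 members, every other family gene with a mean of at least 1 FPKM, the genes past the threshold in the lists of partners and of G proteins (filled up to 4 by mean FPKM), and the 6 genes most like Adgrg2. Genes outside this rule were named after their values were seen. Adgrg4 is not analysed here. Alternatives were pseudocounts, filters, scalings, moderation, library weights, a replicate block, the normalized counts and each library left out in turn.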

Additional observations from a re-analysis of the deposited data

How the results depend on the processing

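The log2 change of Adgrg2 was negative under every alternative run. It passed the threshold with quantile normalization (-1.44, limma adjusted p = 0.047), without the mean-variance trend (-1.24, 0.0345) and with library weights (-1.18, 0.00712), and when each library was left out it ranged from -1.35 to -1.18. The number of members past the threshold, 0 with all libraries, was 2 with quantile normalization, 1 without the trend, 2 with library weights and 0 to 2 with a library left out. Adgrl3 passed with quantile normalization (-1.21) and library weights (-1.26), but not with a pseudocount of 0.1 (limma adjusted p = 0.162), from normalized counts (0.165) or with the replicate number as a block (0.261). The sign turned for Adgrg6 with quantile normalization (0.00), library weights (0.02) and without KO replicate 3 (0.06), over a range of -0.18 to 0.06 with a library left out. It turned for Adgrf5 with median-of-ratios rescaling (-0.01), without wild-type replicate 2 (-0.03) and without KO replicate 2 (-0.19), over a range of -0.19 to 0.18. The difference in the share of Adgrg2 was -18.8 percentage points over the 10 members alone, -19.4 from normalized counts, and -22.7 to -18.4 with a library left out.

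The number of genes past the threshold, 32 in all, was 16 with a pseudocount of 0.1, 101 without a filter, 17 with a minimum mean of 5 FPKM, 106 with quantile normalization, 302 with library weights, 6 from normalized counts and 2 to 631 with a library left out. Leaving out any 1 wild-type library gave 2, and leaving out KO replicate 1, 2 or 3 gave 541, 17 or 631. Fewer genes enter with the higher minimum, more without a filter, and fewer samples when a library is left out; otherwise the cause was not tested. With the replicate number as a block the count was 1, and Adgrg2 kept its change of -1.24 with a limma adjusted p of 0.26. Same-numbered libraries deviated with correlations of -0.113, 0.0318 and 0.0797. With 3 libraries per genotype and KO replicate 3 standing apart, these values cannot show whether the numbers pair the samples. The planned edgeR test was not run, because the normalized counts could not all be turned into whole reads.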
